A study of Arabidopsis thaliana with 8 samples.

Results

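The genes described here were 46 UDP-glycosyltransferase (UGT) genes and 39 glutathione transferase (GST) genes of Arabidopsis thaliana, 85 of the 22668 genes with a measurable probe. Of these 22668, 19000 had a RefSeq locus, and each accession without a locus counted as a gene of its own. Shares of all genes refer to the 22668. The UGT and GST genes were chosen by name and by detection. The RefSeq symbol had to start with UGT and a number, or with GSTU, GSTF, GSTT, GSTL or GSTZ, and a probe had to be well above background on both arrays of at least 1 genotype. UGT74B1 was left out. The 39 GST genes comprised 21 of the tau class (GSTU), 11 of the phi class (GSTF), 3 of theta, 2 of lambda and 2 of zeta. Of 104 gene symbols that qualified by name, 57 UGT and 47 GST, 19 were not kept. One of these (GSTU21) had no probe, 11 were above background on no array, and 7 were above it on 1 to 3 arrays but never on both arrays of a genotype. Genes that the RefSeq table lists under another symbol, such as DOGT1 (UGT73C5) and ERD9 (GSTU17), were not included.

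UGT enzymes transfer a sugar from a UDP-sugar to small molecules such as hormones, phenolics, sterols and foreign chemicals, which makes the products more soluble and usually inactive or ready for storage in the vacuole. GST enzymes attach glutathione to reactive or foreign compounds or carry such compounds, and some use glutathione as a cofactor for isomerisation or peroxide reduction. Both families are large, and in Arabidopsis many members lie in tandem arrays of similar genes. Close copies such as GSTF2 and GSTF3, GSTF6 and GSTF7, or UGT76E1 and UGT76E2 may share hybridisation signal, so values of single members of such pairs are uncertain.

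The samples were whole seedlings of ecotype Col-0, 12 days old and grown on MS medium with 16 h of light. The 8 one-colour arrays held 2 samples each of wild type, of the single mutants as1-1 and tfl2-1, and of plants with both alleles (as1-1 tfl2-1, the double mutant). The TFL2 protein, also called LHP1, binds a repressive histone mark as a partner of Polycomb complexes, and AS1 is a MYB-type regulator of leaf form. The labels do not describe the mutant lesions, and they do not say whether the replicates were separate cultures, so p-values measure only the spread between these samples. Values per array are scaled signals, the processed signal relative to the array's 75th percentile, which was set to 1000. Differences are log2 values each with its standard error (SE) from a fit with 2 arrays per genotype, and adjusted p-values come from limma with Benjamini-Hochberg adjustment over all 22668 genes. A gene rose, fell or was called when its adjusted p was under 0.05. A probe was above background in a genotype when well above it on both arrays, and below background otherwise. A gene was above background with any such probe. A genotype below background could thus still hold an array above it. Levels of different genes rest on different probes and are not compared.

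The wild-type and as1-1 arrays lay on 1 slide and the tfl2-1 and double-mutant arrays on another, so every comparison of tfl2-1 or the double mutant with wild type, and of the double mutant with as1-1, crosses slides, and slide and genotype cannot be told apart there. Between 29243 and 31610 of the 43603 probes exceeded background on an array. AS1 mRNA differed from wild type by -0.49 in as1-1 plants, -0.32 in tfl2-1 plants and 0.02 in the double mutant, and TFL2 mRNA by -0.07, -1.08 and -0.73 on the log2 scale. All 12 leaf (photosynthesis) markers, 6 of 12 root markers and 6 of 8 flower identity markers were measurable. The names SEP1 and SEP2 (flower) and PRX27 and PRX57 (root) were not matched to a RefSeq gene, so their probes were not looked up. All 6 measurable flower markers rose in tfl2-1 and in the double mutant, where 26.2% and 30.8% of all genes rose. Their summed scaled signal was 338 on both wild-type arrays, 746 to 773 in as1-1, 21424 to 22753 in tfl2-1 and 18222 to 19051 in the double mutant, with AG, AP1 and AP3 below background in wild type. Of the 12 leaf markers, 9 fell in tfl2-1, 11 in the double mutant and 1 in as1-1, beside 28.4%, 32.9% and 12.1% of all genes. Their summed signal was 2762029 to 2935832 in wild type, 2612660.1 to 2684895 in as1-1, 2170656 to 2394667 in tfl2-1 and 1917252 to 2087596 in the double mutant. The 4 guard-cell markers summed to 2356 to 2359.9, 2105 to 2248, 1836 to 1877 and 1781 to 1782, and the 6 root markers to 2382 to 2519, 2606 to 2613, 2647 to 2682 and 2995 to 3095, in the same order. The part of organ composition in the UGT and GST differences was not tested, and in whole seedlings fewer cells of a type and less RNA per cell cannot be told apart.

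In as1-1, 5 UGT genes rose and 13 fell against wild type, and 3 GST genes rose and 7 fell. That is 18 of 46 and 10 of 39, in a comparison that called 19.2% of all genes, 7.09% higher and 12.1% lower. In tfl2-1, 13 UGT genes rose and 18 fell, and 12 GST genes rose and 12 fell, where 54.7% of all genes were called, 26.2% higher and 28.4% lower. In the double mutant, 15 UGT genes rose and 18 fell, and 12 GST genes rose and 13 fell, where 63.7% of all genes were called, 30.8% higher and 32.9% lower. Most changes were modest. Called changes of at least 2-fold numbered 2 UGT and 0 GST genes in as1-1 (2.28% of all genes), 9 UGT and 3 GST genes in tfl2-1 (8.62%), and 14 UGT and 5 GST genes in the double mutant (12.3%). The median log2 difference of the 46 UGT genes was -0.13 in as1-1 plants, -0.02 in tfl2-1 plants and 0.08 in the double mutant, and that of the 39 GST genes was -0.03, -0.02 and -0.04. Over all genes the medians were -0.04, -0.01 and -0.01. Neither family moved in 1 direction as a whole, and single members differed by up to several fold in opposite directions.

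**Figure D1:**
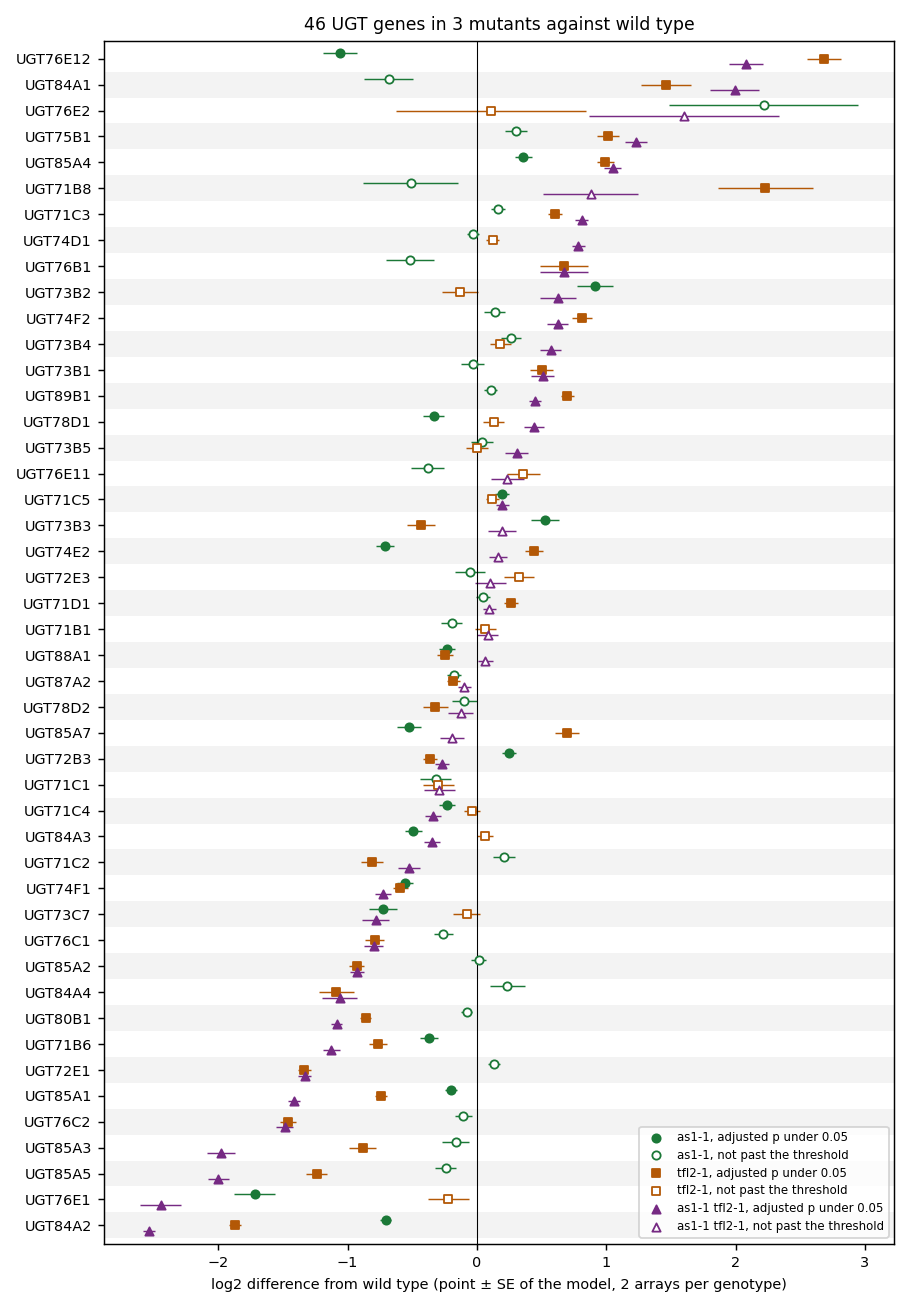
Log2 difference from wild type (horizontal axis) of the 46 UGT genes (one row each) in as1-1 (green circles), tfl2-1 (orange squares) and the double mutant (purple triangles), with bars for the SE of the model and filled symbols for adjusted p under 0.05, over 2 arrays per genotype. UGT84A2, UGT85A5 and UGT85A3 lie on the left in tfl2-1 and the double mutant, and UGT76E12, UGT84A1 and UGT75B1 on the right, while genes below background in a group are drawn at their fitted value.

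Of 3 measurable cytokinin-conjugating UGT genes, all 3 fell in tfl2-1 and in the double mutant, where 28.4% and 32.9% of all genes fell. UGT76C1 and UGT76C2 attach glucose to cytokinin bases at ring nitrogens, and UGT85A1 glucosylates trans-zeatin at its side chain. UGT76C2 (AT5G05860) gave scaled signals of 2249 and 2124 in wild type, 2128 and 1945 in as1-1, 815 and 775 in tfl2-1, and 775 and 785 in the double mutant. Both mutants with tfl2-1 lay far below wild type and as1-1, with no overlap, and close to each other. The log2 difference from wild type was -1.46 ± 0.063 in tfl2-1 (adjusted p = 1.77e-05) and -1.49 ± 0.063 in the double mutant (adjusted p = 1.04e-05), and -0.10 in as1-1 (adjusted p = 0.3). Its neighbour UGT76C1 differed by -0.79 and -0.80 in tfl2-1 and the double mutant. UGT85A1 (AT1G22400) gave 1693 and 1728 in wild type, 1478 and 1502 in as1-1, 1021 and 1029.6 in tfl2-1, and 659 and 623 in the double mutant. These signals step down in the order wild type, as1-1, tfl2-1, double mutant with no overlap between genotypes. Its differences from wild type were -0.20 ± 0.047 in as1-1 (adjusted p = 0.0347), -0.74 ± 0.047 in tfl2-1 (adjusted p = 7.02e-05) and -1.42 ± 0.047 in the double mutant (adjusted p = 4.4e-06). UGT73C1, another enzyme of the list, was above background on 1 array only and was not kept.

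UGT85A1 is 1 of 5 UGT85A genes that lie next to each other in the RefSeq gene order of assembly TAIR10.1, and 4 of the 5 fell in tfl2-1, where 28.4% of all genes fell. UGT85A5 (AT1G22370) gave scaled signals of 2367 and 2644 in wild type, 2173 and 2060.1 in as1-1, 1119.7 and 1005 in tfl2-1, and 645 and 607 in the double mutant. The genotypes did not overlap, but the step from wild type to as1-1, -0.24, did not pass the threshold (adjusted p = 0.094). The difference from wild type was -1.24 ± 0.082 in tfl2-1 (adjusted p = 8.3e-05) and -2.00 ± 0.082 in the double mutant, 4-fold lower (adjusted p = 9.25e-06). Its other probe differed by -1.01 in tfl2-1 and -1.23 in the double mutant (adjusted p = 0.000757 and 0.000217 in a fit of all probes), and by that probe the step from tfl2-1 to the double mutant, -0.23, was not called (adjusted p = 0.19). UGT85A3 (AT1G22380) gave 195 and 236 in wild type, 192 and 191 in as1-1, 125 and 109 in tfl2-1, and 53.2 and 55.9 in the double mutant. The double mutant was lowest, with both arrays below the tfl2-1 arrays. UGT85A3 differed from wild type by -0.88 ± 0.11 in tfl2-1 and -1.98 ± 0.11 in the double mutant (adjusted p = 0.000892 and 2.31e-05). UGT85A2 differed alike in both, with -0.93 in tfl2-1 and -0.92 in the double mutant. Its dimmer second probe differed by -0.60 and -0.11 there, and with the mean of both probes the double-mutant difference was -0.51 and not past the threshold. UGT85A7, at the edge of the cluster, went the other way in tfl2-1. Its signals were 67.4 and 76.4 in wild type, 46.7 and 53.1 in as1-1, 122 and 110.5 in tfl2-1, and 62.4 and 63.4 in the double mutant. The tfl2-1 arrays were highest and the as1-1 arrays lowest, and the double mutant did not separate from wild type beyond the threshold (-0.19, adjusted p = 0.123). UGT85A7 rose by 0.70 in tfl2-1 and differed by -0.53 in as1-1. UGT85A4, which lies outside the cluster, rose in all 3 mutants, by 0.36, 0.99 and 1.05 in as1-1, tfl2-1 and the double mutant.

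Of the 4 enzymes that glucosylate hydroxyjasmonate, UGT76E12 showed the largest rise of any UGT gene in tfl2-1 and in the double mutant, among genes above background in both groups. UGT76E12 (AT3G46660) gave scaled signals of 85.2 and 109 in wild type, 43.1 and 49.7 in as1-1, 585 and 653 in tfl2-1, and 400.1 and 414 in the double mutant. The as1-1 arrays lay below wild type and the tfl2-1 and double-mutant arrays far above it, with no overlap between any of the 4 genotypes. It fell by 1.06 on the log2 scale in as1-1 (SE 0.13, adjusted p = 0.00404). It rose by 2.68 ± 0.13 in tfl2-1, 6.42-fold (adjusted p = 2.76e-05), and by 2.08 ± 0.13 in the double mutant, 4.23-fold (adjusted p = 4.5e-05). UGT76E1 (AT5G59580) separated the genotypes by as1-1 instead. Its scaled signals were 46.1 and 47.7 in wild type, 12.2 and 16.7 in as1-1, 37.1 and 43.7 in tfl2-1, and 9.09 and 8.19 in the double mutant. Both genotypes with as1-1 were below background, and tfl2-1 lay slightly under wild type without a call (-0.22, adjusted p = 0.28). A group below background has only a bound, computed against the higher of its own signal and the lowest signal above background on each array. UGT76E1 in as1-1 was lower than in wild type by at least 3.2-fold (adjusted p = 0.00128), and in the double mutant at least 4.2-fold lower than in wild type (adjusted p = 4.8e-05) and at least 3.61-fold lower than in tfl2-1. These bounds hold for this processing only. With the normexp background correction the 3 log2 differences were -0.68, -0.93 and -0.78, smaller but still called. UGT76E2, its neighbour, gave 9.31 and 7.05 in wild type, 38.4 and 37.0 in as1-1, 3.67 and 20.8 in tfl2-1, and 26.9 and 22.6 in the double mutant. It was above background in as1-1 and in the double mutant only, at least 2.88-fold and 1.88-fold above wild type. Neither difference was called (adjusted p = 0.0873 and 0.101). UGT76E2 entered the set through these genotypes, so the rule favoured values above wild type there. UGT76E11, the neighbour of UGT76E12, was called in no mutant against wild type (log2 differences -0.38, 0.36 and 0.24).

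The UGT84A enzymes make glucose esters of hydroxycinnamic acids, and the 4 genes moved in different directions. UGT84A2 (AT3G21560), the sinapate glucosyltransferase also known as BRIGHT TRICHOMES 1, gave scaled signals of 809 and 852 in wild type, 509.8 and 507 in as1-1, 226 and 228 in tfl2-1, and 143 and 143 in the double mutant. The 4 genotypes formed 4 separate levels, with replicates almost equal. The difference from wild type was -0.71 ± 0.045 in as1-1 plants, -1.87 ± 0.045 in tfl2-1 plants and -2.53 ± 0.045 in the double mutant (adjusted p = 0.000349, 3.14e-06 and 1.01e-06), the last 5.79-fold. UGT84A1 (AT4G15480) gave 30.0 and 27.3 in wild type, 14.7 and 21.7 in as1-1, 86.7 and 71.8 in tfl2-1, and 119 and 109 in the double mutant. The tfl2-1 and double-mutant arrays lay above every wild-type and as1-1 array. UGT84A1 rose by 1.46 ± 0.19 in tfl2-1 and 1.99 ± 0.19 in the double mutant (adjusted p = 0.00126 and 0.000238). The signal is dim, and with the normexp background correction these became 0.58 and 0.92. UGT84A4, in the same cluster of 3, fell by 1.09 in tfl2-1 and 1.06 in the double mutant. UGT84A3, between them, differed from wild type by -0.49 in as1-1 and -0.35 in the double mutant, but its dimmer second probe ran the other way and the mean of both probes reversed the sign (0.33 in as1-1).

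Of the UGT72E enzymes, which glucosylate lignin precursors, UGT72E1 (AT3G50740) gave scaled signals of 2449.9 and 2539.9 in wild type, 2743 and 2717 in as1-1, 1013 and 967 in tfl2-1, and 1004 and 978 in the double mutant. Both genotypes with tfl2-1 lay below every array of the other genotypes. UGT72E1 fell by 1.33 on the log2 scale in tfl2-1 and by the same amount in the double mutant (SE 0.048, 2.52-fold, adjusted p = 9.56e-06 and 5.62e-06). UGT72E3 was called in no mutant, with differences from -0.05 to 0.32. UGT72B3 differed by 0.25 in as1-1 plants, -0.36 in tfl2-1 plants and -0.27 in the double mutant, the last of which turned to 0.02 when arrays were centred on spike-in probes.

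Of the 4 salicylate-related UGT genes, 3 rose and 1 fell in both tfl2-1 and the double mutant. Over all genes 26.2% rose and 28.4% fell in the former, and 30.8% rose and 32.9% fell in the latter. UGT74F2 makes the glucose ester of salicylic acid and UGT74F1 its glucoside, and the neighbouring genes ran in opposite directions. UGT74F2 (AT2G43820) gave scaled signals of 3108 and 3141 in wild type, 3496 and 3382 in as1-1, 5879 and 5127 in tfl2-1, and 4595 and 5048 in the double mutant. Its tfl2-1 and double-mutant arrays lay above all others. UGT74F1 (AT2G43840) gave 227 and 246 in wild type, 161 and 161 in as1-1, 151 and 163 in tfl2-1, and 144 and 143 in the double mutant, with every mutant array below both wild-type arrays. UGT74F2 rose by 0.81 ± 0.081 in tfl2-1 and 0.62 ± 0.081 in the double mutant (adjusted p = 0.000405 and 0.000839). UGT74F1 differed by -0.55 ± 0.061, -0.59 ± 0.061 and -0.72 ± 0.061 in as1-1, tfl2-1 and the double mutant (adjusted p = 0.00259, 0.000491 and 0.00014). UGT76B1, which acts on isoleucic acid and salicylic acid, rose by 0.68 and 0.67, and UGT71C3, which acts on methyl salicylate, by 0.61 and 0.81. UGT76D1, another gene of the list, had signals of 1.68 to 95.3 and lay just outside the detection rule.

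Of 3 auxin-related UGT genes, 2 rose in tfl2-1 and 2 in the double mutant, where 26.2% and 30.8% of all genes rose, with UGT75B1 in both. UGT75B1 (AT1G05560), which can glucosylate indole-3-acetic acid, gave scaled signals of 4773 and 5511 in wild type, 6552 and 6108 in as1-1, 10752 and 9967 in tfl2-1, and 11692 and 12404 in the double mutant. The tfl2-1 and double-mutant arrays lay above every other array. UGT75B1 rose by 1.01 ± 0.087 in tfl2-1 and 1.23 ± 0.087 in the double mutant, 2.02-fold and 2.35-fold (adjusted p = 0.000226 and 6.74e-05). The dimmer second probe of UGT75B1 rose in as1-1 as well, by 0.66 (adjusted p = 0.0157 in a fit of all probes). In tfl2-1 and the double mutant that probe rose by 1.25 and 1.53. UGT74D1 (AT2G31750), another glucosyltransferase of auxins, gave 1125 and 1118 in wild type, 1091 and 1103 in as1-1, 1216 and 1224 in tfl2-1, and 1874 and 1994 in the double mutant. By this probe the double mutant lay above the other 3 genotypes. UGT74D1 rose by 0.79 ± 0.048 there (adjusted p = 3.72e-05) against -0.03 in as1-1 and 0.12 in tfl2-1. Its dimmer second probe gave 129.6 and 131 in wild type and 161 and 178 in tfl2-1, and differed by 0.29, 0.38 and 1.02 in as1-1, tfl2-1 and the double mutant (adjusted p = 0.0571, 0.00981 and 0.000118 in a fit of all probes). UGT74E2 (AT1G05680), which glucosylates indole-3-butyric acid, gave 1188 and 1349 in wild type, 759 and 785 in as1-1, 1753 and 1682 in tfl2-1, and 1423 and 1410.0 in the double mutant. It was lowest in as1-1 and highest in tfl2-1. UGT74E2 differed from wild type by -0.71 ± 0.07 in as1-1 (adjusted p = 0.00161), 0.44 ± 0.07 in tfl2-1 (adjusted p = 0.00273) and 0.16 in the double mutant (adjusted p = 0.0853).

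UGT71B6 and UGT71C5, which make the glucose ester of abscisic acid, behaved differently. UGT71B6 (AT3G21780) gave 296 and 329 in wild type, 242 and 242 in as1-1, 183 and 184 in tfl2-1, and 138 and 149 in the double mutant, 4 levels with no overlap. It fell in all 3 mutants, with differences of -0.37 ± 0.067, -0.76 ± 0.067 and -1.13 ± 0.067 (adjusted p = 0.0148, 0.000249 and 3.5e-05). UGT71C5 differed by 0.20, 0.12 and 0.20, called in as1-1 and the double mutant. UGT71B8 lay just inside the detection rule, with signals of 5.82 and 4.90 in wild type, 5.36 and 2.62 in as1-1, 27.5 and 22.8 in tfl2-1, and 7.86 and 12.3 in the double mutant, and only tfl2-1 was above background. It entered the set through tfl2-1 alone, so the rule favoured a rise there and a test of it is not independent. By the bound, UGT71B8 was at least 1.91-fold higher in tfl2-1 than in wild type. With the normexp background correction the log2 difference was 0.29. UGT71B8 is counted among the UGT rises in tfl2-1 and the UGT falls from tfl2-1 to the double mutant. It is also in the counts of at least 2-fold there, at fitted values of 2.23 and -1.35. The rule favoured that fall too. Its rise in the double mutant against as1-1 is counted with both genotypes below background.

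Among enzymes of flavonoids and sterols, UGT78D1, a flavonol rhamnosyltransferase, gave 1071 and 1262 in wild type, 908 and 936 in as1-1, 1269.6 and 1276 in tfl2-1, and 1576 and 1581 in the double mutant. It was lowest in as1-1 and highest in the double mutant. UGT78D1 differed by -0.34 ± 0.08 in as1-1 (adjusted p = 0.0353) and 0.44 ± 0.08 in the double mutant (adjusted p = 0.00359). UGT78D2, a flavonoid 3-O-glucosyltransferase, was called in tfl2-1 only (-0.32, adjusted p = 0.0316). UGT80B1 (AT1G43620), a sterol glucosyltransferase of seed coat formation, gave 1972 and 1967 in wild type, 1893 and 1842 in as1-1, 1098 and 1074 in tfl2-1, and 935 and 924 in the double mutant. By this brightest of 3 probes, wild type and as1-1 lay together, tfl2-1 lower and the double mutant lowest. The differences were -0.86 ± 0.042 in tfl2-1 and -1.08 ± 0.042 in the double mutant (adjusted p = 2.76e-05 and 7.61e-06). By the other probes the step from tfl2-1 to the double mutant was -0.40 and 0.10 (adjusted p = 0.0309 and 0.625 in a fit of all probes), the latter not called.

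The UGT73B genes, several of which respond to stress and foreign chemicals, included 2 of the 5 UGT genes that rose in as1-1. UGT73B2 (AT4G34135) gave 204 and 278 in wild type, 462 and 435 in as1-1, 210.5 and 225 in tfl2-1, and 368 and 366 in the double mutant. Both genotypes with as1-1 lay above both genotypes without it. It rose by 0.91 ± 0.14 in as1-1 and 0.62 ± 0.14 in the double mutant (adjusted p = 0.00816 and 0.00861). The neighbouring UGT73B3 differed by 0.53 in as1-1 plants, -0.44 in tfl2-1 plants and 0.20 in the double mutant, the last not called. UGT73B1, the third gene of the cluster, rose by 0.50 in tfl2-1 and 0.51 in the double mutant. UGT73B4 and UGT73B5, a second pair of neighbours, were called in the double mutant only, at 0.57 and 0.31, and the first of these was 0.04 and not called with the normexp correction. UGT73C7 (AT3G53160) followed as1-1 in the opposite direction. It gave 50.1 and 57.7 in wild type, 30.0 and 35.2 in as1-1, 49.0 and 52.9 in tfl2-1, and 30.3 and 32.2 in the double mutant, so that both genotypes with as1-1 lay below the others. The differences were -0.73 in as1-1 and -0.78 in the double mutant (adjusted p = 0.00672 and 0.000994).

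The remaining UGT genes changed less. UGT71C2 fell by 0.81 in tfl2-1 and 0.52 in the double mutant. UGT89B1 rose by 0.70 and 0.45. UGT71C4 differed by -0.23 in as1-1 and -0.34 in the double mutant. UGT71D1 and UGT87A2 were called in tfl2-1 only, at 0.26 and -0.18, the latter a gene known for an effect on flowering time. UGT88A1 differed by -0.23 in as1-1 and -0.25 in tfl2-1, and by 0.07 without a call in the double mutant. UGT71B1 was called in none of the mutants by its brightest probe, with differences from -0.19 to 0.09. Its other 2 probes rose by 0.22 and 0.36 in tfl2-1 (adjusted p = 0.0242 and 0.00965 in a fit of all probes) and by 0.30 and 0.32 in the double mutant (adjusted p = 0.00662 and 0.0118). UGT71C1 was above background in wild type only, at 23.2 and 22.6 in wild type, 17.1 and 19.7 in as1-1, 18.1 and 19.2 in tfl2-1, and 16.7 and 20.9 in the double mutant, and was not called. It entered the set through wild type alone, so the rule favoured lower values in the mutants.

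**Figure D2:**
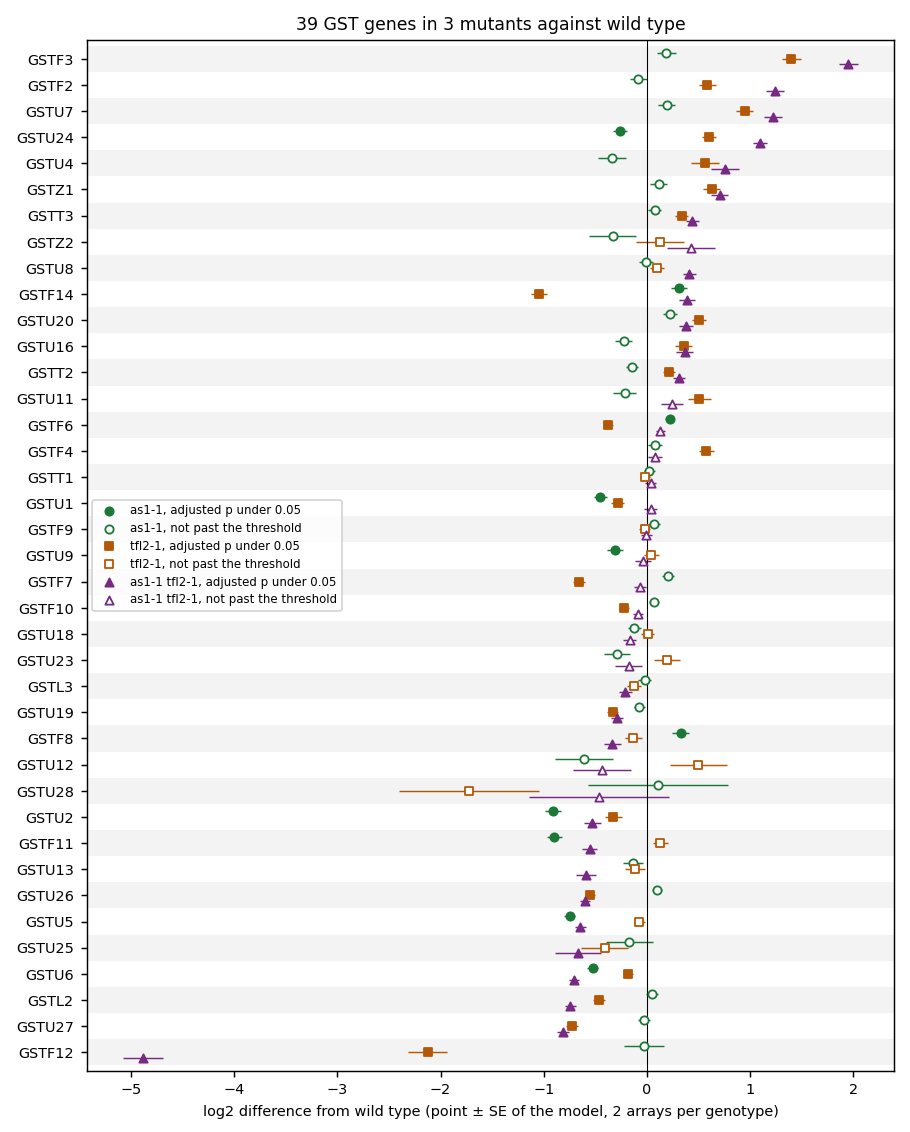
Log2 difference from wild type (horizontal axis) of the 39 GST genes (one row each) in as1-1 (green circles), tfl2-1 (orange squares) and the double mutant (purple triangles), with bars for the SE of the model and filled symbols for adjusted p under 0.05, over 2 arrays per genotype. GSTF3, GSTF2, GSTU7 and GSTU24 lie on the right in the double mutant, and GSTF12, drawn from its brighter probe at the fitted value, is the point far to the left.

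Among phi-class GST genes, GSTF2 and GSTF3 rose in tfl2-1 and rose further in the double mutant. GSTF2 is a plasma-membrane-associated protein that binds small indolic ligands, and GSTF3 is its close copy. GSTF2 (AT4G02520) gave scaled signals of 8410.4 and 7230.3 in wild type, 7496 and 7234 in as1-1, 11962 and 11422 in tfl2-1, and 19132 and 17740.4 in the double mutant. Wild type and as1-1 overlapped, and the double-mutant arrays lay above the tfl2-1 arrays. GSTF2 rose by 0.58 ± 0.084 in tfl2-1 and 1.24 ± 0.084 in the double mutant, 1.5-fold and 2.36-fold (adjusted p = 0.00185 and 5.74e-05). These are values of the brightest of 4 probes. The other 3 rose in as1-1 as well as in tfl2-1 and the double mutant, in as1-1 by 0.31, 0.34 and 0.37 (adjusted p = 0.0116, 0.0174 and 0.0253 in a fit of all probes). GSTF3 (AT2G02930) gave 160.1 and 172 in wild type, 207 and 172 in as1-1, 444 and 431 in tfl2-1, and 636 and 647 in the double mutant. The tfl2-1 arrays lay above wild type and as1-1, and the double-mutant arrays above tfl2-1. GSTF3 rose by 1.40 ± 0.092 in tfl2-1 and 1.95 ± 0.092 in the double mutant, 2.63-fold and 3.86-fold (adjusted p = 7.89e-05 and 1.46e-05).

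GSTF6, which takes part in camalexin synthesis, and its neighbours GSTF7 and GSTF4 were called in tfl2-1 and not in the double mutant. GSTF7 (AT1G02920) gave 218 and 234 in wild type, 258 and 262 in as1-1, 140.4 and 147 in tfl2-1, and 221 and 209.8 in the double mutant. Only tfl2-1 stood apart, below all other arrays. GSTF7 fell by 0.66 in tfl2-1 (adjusted p = 0.000245), and GSTF6 by 0.38 (adjusted p = 0.00104). In as1-1, GSTF6 rose by 0.22 (adjusted p = 0.0259). In the double mutant neither was called (-0.07 and 0.13), though the second probe of GSTF6 was, at 0.17 (adjusted p = 0.0338 in a fit of all probes). GSTF4, at the other end of the run, rose by 0.58 in tfl2-1 (adjusted p = 0.000874) and differed by 0.07 in the double mutant. Between the double mutant and tfl2-1 all 3 differed, by 0.59 for GSTF7, 0.51 for GSTF6 and -0.50 for GSTF4 (adjusted p = 0.00111, 0.000917 and 0.00353). GSTF14, near the detection limit, gave 43.3 and 39.4 in wild type, 48.3 and 54.4 in as1-1, 20.0 and 20.0 in tfl2-1, and 55.1 and 53.1 in the double mutant. It was below background in tfl2-1 only, at least 2.06-fold lower than in wild type (adjusted p = 0.000117), while the double mutant was at least 2.7-fold above tfl2-1 (adjusted p = 0.000151). GSTF14 rose by 0.31 in as1-1 and 0.39 in the double mutant (adjusted p = 0.0382 and 0.00493). With the normexp background correction these were 0.04 and 0.09, neither called, and the tfl2-1 difference was -0.48. GSTF8, an early stress gene, rose by 0.33 in as1-1 and differed by -0.33 in the double mutant.

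GSTs that take part in glucosinolate synthesis did not move together. GSTF11 (AT3G03190), linked to aliphatic glucosinolates, gave 1359.7 and 1233 in wild type, 689 and 699 in as1-1, 1469 and 1361 in tfl2-1, and 847 and 917 in the double mutant. Both genotypes with as1-1 lay below both genotypes without it. GSTF11 fell by 0.90 in as1-1 (SE 0.073, adjusted p = 0.00083) and differed by -0.55 ± 0.073 in the double mutant (adjusted p = 0.000909) and 0.13 in tfl2-1. GSTU20 (AT1G78370), which serves the same pathway and binds the jasmonate-conjugating enzyme FIN219, gave 20715 and 18994 in wild type, 23350.0 and 22939 in as1-1, 28555 and 27587 in tfl2-1, and 24620.2 and 26855 in the double mutant. All mutant arrays lay above both wild-type arrays. GSTU20 rose by 0.50 in tfl2-1 and 0.37 in the double mutant (adjusted p = 0.00132 and 0.0033) and differed by 0.22 in as1-1 (adjusted p = 0.0672). GSTU13, linked to indole glucosinolates, was called in the double mutant only, at -0.59 (adjusted p = 0.00242). GSTF9 and GSTF10, neighbours linked to the same pathway, differed little. GSTF10 was called in tfl2-1 (-0.23, adjusted p = 0.0101) and GSTF9 in no mutant (-0.02 to 0.07). With quantile normalization, however, the double-mutant differences of GSTF9 and GSTF10 were 0.54 and 0.16, against -0.01 and -0.09 here, so the sign of these differences depends on the scaling. With that normalization the tfl2-1 difference of GSTF10 was -0.11 and not called.

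GSTF12, also called TRANSPARENT TESTA 19, carries anthocyanins to the vacuole, and its 2 probes disagreed. The brighter probe gave scaled signals of 211 and 193 in wild type, 185 and 212 in as1-1, 44.7 and 48.0 in tfl2-1, and 5.57 and 8.41 in the double mutant. It stepped down from wild type to tfl2-1 and to below background in the double mutant. The other probe gave 33.2 and 32.0 in wild type, 33.5 and 31.3 in as1-1, 37.0 and 40.5 in tfl2-1, and 63.1 and 55.2 in the double mutant, which is a small step up in the same order. By the brighter probe GSTF12 was -2.13 ± 0.19 from wild type in tfl2-1 (adjusted p = 0.000268) and at least 17.8-fold lower in the double mutant (fitted -4.88, adjusted p = 7.42e-06). With the normexp background correction the double-mutant difference was -2.24, so the bound holds for this processing only. By the other probe the log2 differences were 0.25 and 0.86 (adjusted p = 0.0499 and 0.000295 in a fit of all probes). Both probes carry the same accession in the files, and the direction of GSTF12 is not settled by these data.

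**Figure D3:**
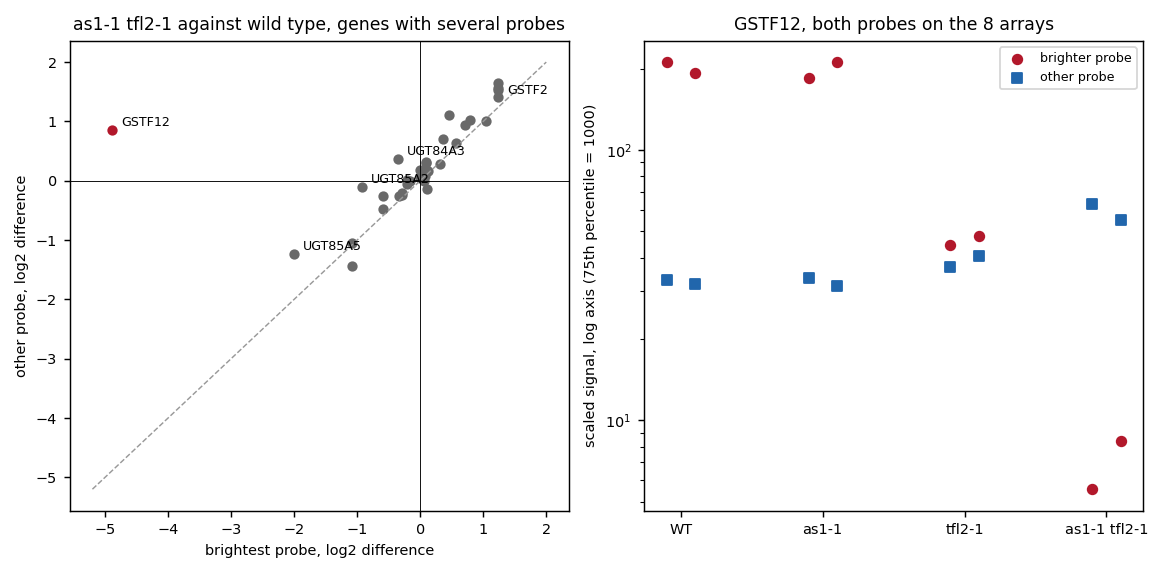
Left, the log2 difference between the double mutant and wild type for the brightest probe (horizontal) and the other kept probes (vertical) of the 25 genes with several probes. Right, the scaled signals of both GSTF12 probes on the 8 arrays (log axis, 1 point per array), where the brighter probe steps down and the other one up.

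Of 21 tau-class GST genes, 6 fell and 0 rose in as1-1, where 12.1% of all genes fell and 7.09% rose. GSTU1 to GSTU7 form 1 run of 7 neighbours, of which 6 were measurable, and 4 of these 6 (GSTU1, GSTU2, GSTU5 and GSTU6) fell in as1-1. GSTU5 (AT2G29450) gave 8819 and 9126 in wild type, 5391 and 5278 in as1-1, 8272 and 8767 in tfl2-1, and 5614 and 5848 in the double mutant. Both genotypes with as1-1 lay below both without it, and tfl2-1 differed from wild type by -0.08 (adjusted p = 0.264). GSTU5 fell by 0.75 in as1-1 (SE 0.052, adjusted p = 0.000462) and by 0.65 in the double mutant (adjusted p = 0.000113). GSTU2 (AT2G29480) gave 61.2 and 56.5 in wild type, 29.1 and 33.7 in as1-1, 47.8 and 46.1 in tfl2-1, and 40.3 and 41.1 in the double mutant, lowest in as1-1. The differences were -0.91 ± 0.081, -0.33 ± 0.081 and -0.53 ± 0.081 in as1-1, tfl2-1 and the double mutant (adjusted p = 0.00115, 0.0164 and 0.00175). GSTU6 differed by -0.53, -0.18 and -0.71, all called. GSTU1 gave 612 and 628 in wild type, 478 and 429 in as1-1, 520.0 and 498 in tfl2-1, and 639.6 and 629.6 in the double mutant, with the double mutant close to wild type (0.03, adjusted p = 0.665). It fell by 0.45 in as1-1 and 0.29 in tfl2-1.

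GSTU7 and GSTU4, in the same run, rose instead in the genotypes with tfl2-1. GSTU7 (AT2G29420) gave 1803 and 1957 in wild type, 2146 and 2142 in as1-1, 3705 and 3541 in tfl2-1, and 4722 and 4059 in the double mutant. The tfl2-1 and double-mutant arrays lay above all others. GSTU7 rose by 0.95 ± 0.084 in tfl2-1 and 1.22 ± 0.084 in the double mutant, 1.93-fold and 2.33-fold (adjusted p = 0.000254 and 5.99e-05). GSTU4 rose by 0.56 and 0.76. GSTU24 (AT1G17170), known for conjugation of explosives such as TNT, gave 577 and 517 in wild type, 443 and 469 in as1-1, 820.5 and 838 in tfl2-1, and 1144 and 1189 in the double mutant. It was lowest in as1-1 and highest in the double mutant, with no overlap between genotypes. GSTU24 differed by -0.26 ± 0.067, 0.60 ± 0.067 and 1.09 ± 0.067 in as1-1, tfl2-1 and the double mutant (adjusted p = 0.0432, 0.00066 and 3.9e-05). Its neighbour GSTU26 ran opposite, at -0.55 in tfl2-1 and -0.60 in the double mutant. GSTU25, between them, was below background in both genotypes with tfl2-1, at least 1.55-fold lower in the double mutant than in wild type (adjusted p = 0.0399). With the normexp background correction that log2 difference was -0.30.

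**Figure D4:**
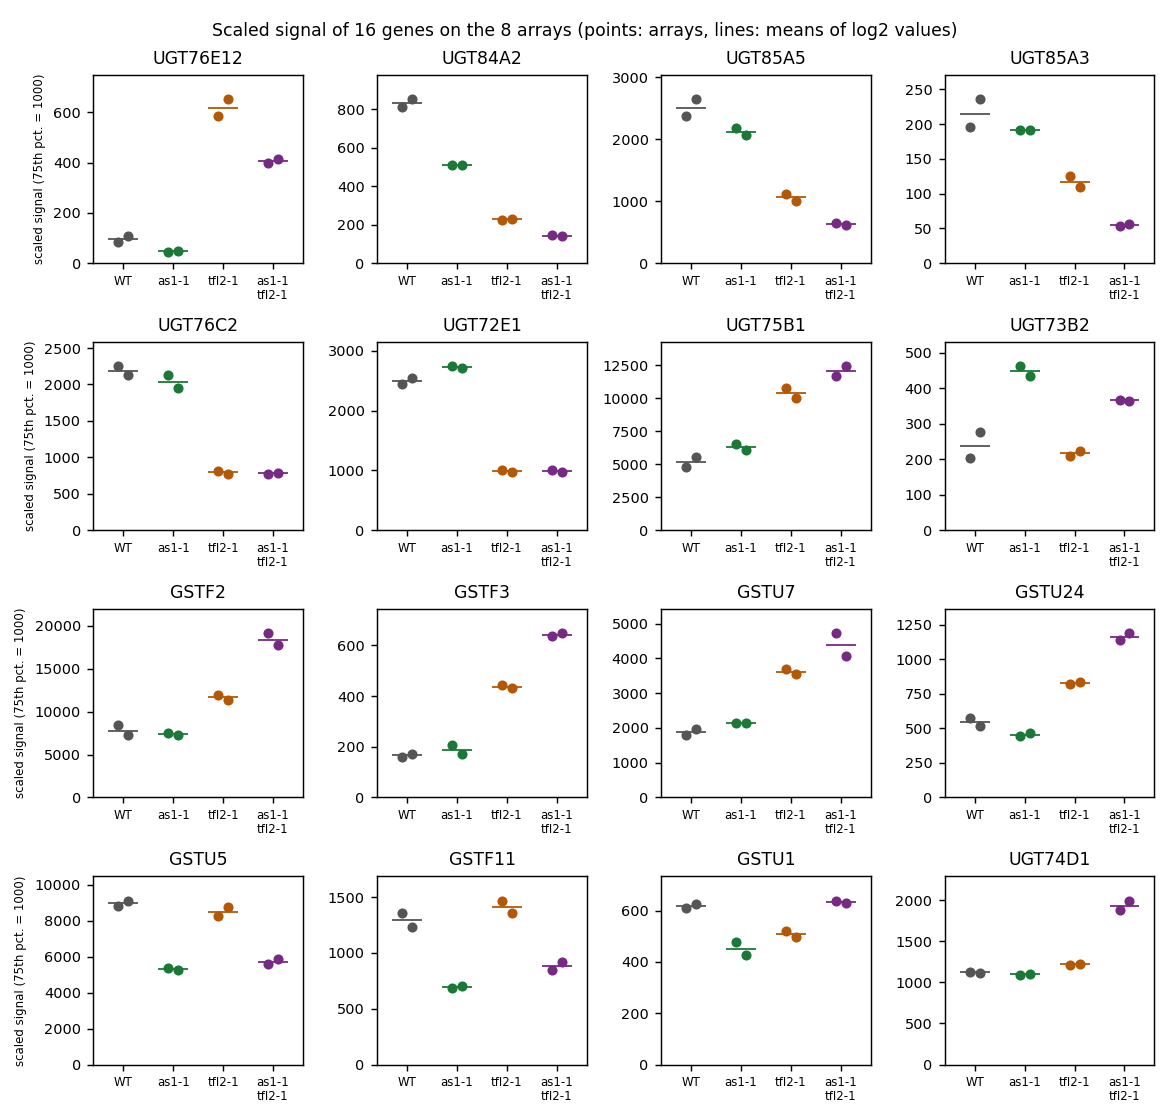
Scaled signal (75th percentile set to 1000, linear axis from 0) of 16 UGT and GST genes on the 8 arrays, 1 point per array and a line at the mean of the log2 values of each genotype. UGT84A2, UGT85A5 and UGT85A3 step down towards the double mutant, GSTF2, GSTF3, GSTU7 and GSTU24 step up, and GSTU5, GSTF11 and UGT73B2 separate the genotypes with as1-1 from those without.

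Of the other tau-class genes, GSTU27 (AT3G43800) gave 2520.4 and 2676 in wild type, 2491 and 2586 in as1-1, 1597 and 1535 in tfl2-1, and 1518 and 1434 in the double mutant. Both genotypes with tfl2-1 lay below the others. GSTU27 fell by 0.73 in tfl2-1 and 0.82 in the double mutant (adjusted p = 0.000156 and 6.51e-05). GSTU19, an enzyme active on herbicides, differed by -0.33 and -0.29 in tfl2-1 and the double mutant. With quantile normalization these were -0.17 and 0.03, and neither was called. GSTU16 rose by 0.35 in tfl2-1 and 0.36 in the double mutant. GSTU11 was called in tfl2-1 only (0.51), GSTU8 in the double mutant only (0.41) and GSTU9 in as1-1 only (-0.31). GSTU12, GSTU18, GSTU23 and GSTU28 were called in no mutant against wild type. GSTU12 and GSTU28 were below background in the double mutant and in tfl2-1, respectively, and GSTU18 and GSTU23 stayed within -0.29 to 0.19. Just outside the detection rule, GSTU10 gave signals of 9.03 to 21.4 and GSTU22 of 4.11 to 12.9.

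In the small classes, GSTZ1 (AT2G02390), the maleylacetoacetate isomerase of tyrosine breakdown, gave 1895 and 1727 in wild type, 1852 and 2066 in as1-1, 2693 and 2905 in tfl2-1, and 3038 and 2866 in the double mutant. The tfl2-1 and double-mutant arrays lay above all others. GSTZ1 rose by 0.63 ± 0.082 in tfl2-1 and 0.71 ± 0.082 in the double mutant (adjusted p = 0.00122 and 0.000526), while its dim neighbour GSTZ2 was not called. Of the theta-class genes, which have glutathione peroxidase activity, GSTT2 rose by 0.22 and 0.31 and GSTT3 by 0.33 and 0.44, and GSTT1 stayed within -0.02 to 0.04. Of the lambda-class genes, which act as thiol transferases, GSTL2 gave 4888 and 4901 in wild type, 5276 and 4832 in as1-1, 3482 and 3601 in tfl2-1, and 2972 and 2882 in the double mutant. It fell by 0.47 in tfl2-1 and 0.74 in the double mutant (adjusted p = 0.000948 and 9.41e-05). GSTL3 differed by -0.21 in the double mutant, which turned to 0.08 with spike-in centring.

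Call stability differed between comparisons. In as1-1, only GSTF11, GSTU2, GSTU5, UGT73B2, UGT76E1 and UGT76E12 stayed called under each of the up to 18 alternative settings. All the other as1-1 calls named above were lost under 1 or more of them. In tfl2-1, 22 of 31 UGT and 11 of 24 GST calls stayed, and in the double mutant 23 of 33 and 13 of 25. Staying called took no account of sign, and the GST calls that stayed in tfl2-1 and the double mutant include GSTF12. Its differences there turned from -2.13 and -4.88 to 0.25 and 0.86 with probes above background on all 8 arrays. Calls were also compared between the probes of the 25 genes with several probes. Every probe gave the call of the brightest, in the same direction, for 2 of 5 such genes called in as1-1 (GSTF6 and UGT85A4), 12 of 14 in tfl2-1 and 12 of 18 in the double mutant. That held for 13 of 19 for the double mutant against as1-1, 5 of 13 against tfl2-1, and 2 of 9 for the interaction (GSTF4 and UGT88A1). Shares over all genes of calls that stayed, or that every probe gave, are not given here. The counts of this paragraph therefore do not show whether UGT and GST calls were more or less stable than those of other genes. The steps from tfl2-1 to the double mutant of UGT80B1 and UGT89B1, -0.22 and -0.25 by the brightest probe, were -0.40 and 0.10 for UGT80B1 and 0.01 for UGT89B1 by the others.

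Adding as1-1 to wild type and adding as1-1 to tfl2-1 share no arrays, and each lies within 1 slide. In the tfl2-1 background, as1-1 was accompanied by 8 rises and 15 falls among UGT genes and 8 rises and 8 falls among GST genes, where 31.5% of all genes were called, 13.5% higher and 18% lower. Called differences of at least 2-fold numbered 3 UGT and 2 GST genes (2.98% of all genes). These were UGT76E1, UGT85A3, UGT71B8, GSTF12 and GSTF14. UGT71B8 entered the set through tfl2-1 alone, so the rule favoured a fall from tfl2-1. UGT76E1 was below background in the double mutant and GSTF14 in tfl2-1, and the direction of GSTF12 is not settled. Of the 28 members called in wild-type background and the 39 called in tfl2-1 background, 21 were called in both, 17 of them in the same direction. That is 60.7% of the first list and 43.6% of the second, against 37.5% and 22.8% for same-direction calls over all genes. UGT71B6, UGT71C4, UGT73C7, UGT74E2, UGT76E1, UGT76E12, UGT84A2, UGT84A3, UGT85A1, UGT85A7, GSTF11, GSTU5 and GSTU6 fell in both backgrounds, and UGT73B2, UGT73B3, GSTF6 and GSTF14 rose in both. The other 4 changed in opposite directions. GSTU1, GSTU24, UGT78D1 and UGT88A1 fell when as1-1 was added to wild type and rose when it was added to tfl2-1. Across the 46 UGT genes the as1-1 differences in both backgrounds had a Pearson correlation of 0.75, across the 39 GST genes 0.35, and across all 22668 genes 0.16. The Spearman correlations were 0.63, 0.42 and 0.19. The UGT values include UGT76E1, below background in both genotypes with as1-1, and the GST values include GSTF12, whose direction is not settled. These correlations are a description over genes, which are not independent replicates.

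**Figure D5:**
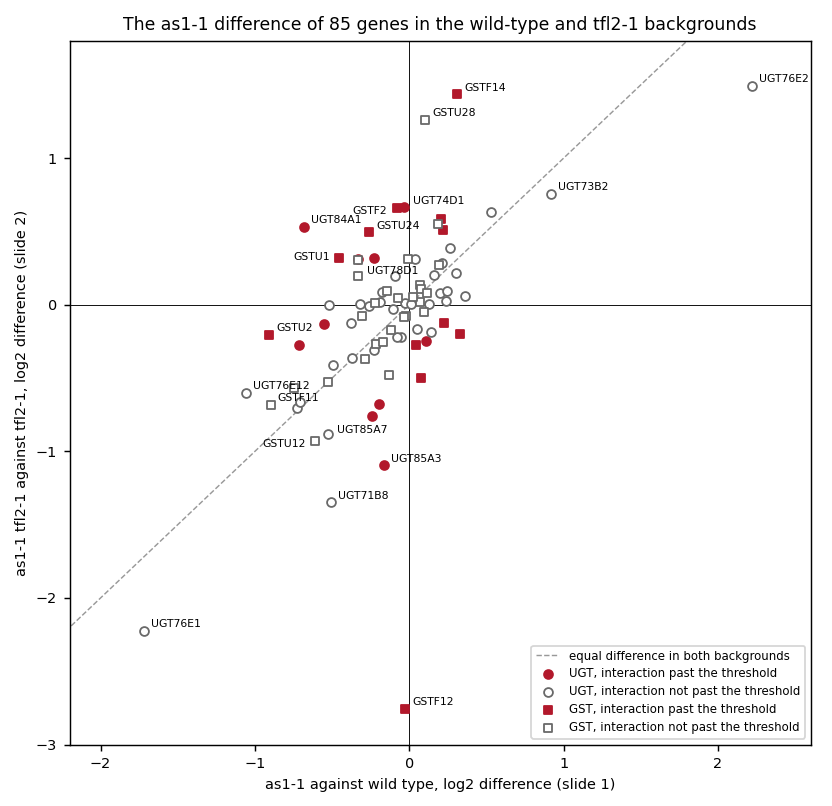
Log2 difference that goes with as1-1 in wild-type background (horizontal) and in tfl2-1 background (vertical) for the 46 UGT genes (circles) and 39 GST genes (squares), with filled symbols where the interaction had an adjusted p under 0.05 and a dashed line of equal difference. UGT76E1 and UGT76E12 lie low in both, UGT73B2 high in both, and GSTU1, GSTU24, UGT78D1 and UGT84A1 in the upper left.

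The as1-1 difference itself differed between backgrounds (interaction) for 10 UGT and 12 GST genes, where 20.3% of all genes were called, 10.6% higher and 9.67% lower. At least 2-fold interactions numbered 1 UGT and 2 GST genes (3.49% of all genes). GSTU1 turned from a fall to a rise, with -0.45 in wild-type and 0.32 in tfl2-1 background, an interaction of 0.77 ± 0.09 (adjusted p = 0.00342). GSTF2 had an interaction of 0.74 ± 0.12 by its brightest probe (adjusted p = 0.0102), but those of its other 3 probes were 0.27, 0.32 and 0.28 and not called (adjusted p = 0.0506, 0.0604 and 0.135 in a fit of all probes). UGT74D1 had an interaction of 0.70 ± 0.067 by its brighter probe (adjusted p = 0.00179) and 0.35, not called, by the other (adjusted p = 0.0875). In the opposite sense, UGT85A3 showed -0.16 and -1.09, an interaction of -0.93 ± 0.15 (adjusted p = 0.0103), and its neighbours UGT85A5 and UGT85A1 had interactions of -0.52 and -0.48. That of UGT85A5 was -0.14 by its other probe (adjusted p = 0.567). Of the 22 interaction calls, only UGT85A3, GSTF12 and GSTF14 stayed called under every alternative, and GSTF12 reversed its sign with its probe.

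Adding tfl2-1 to as1-1 was accompanied by 19 rises and 15 falls among UGT genes and 16 rises and 11 falls among GST genes, where 61.5% of all genes were called, 32.5% higher and 29% lower. At least 2-fold, 12 UGT and 6 GST genes were called (11.8% of all genes). The largest rise among genes above background in both groups was that of UGT76E12, at 3.14 ± 0.13 (adjusted p = 9.51e-06), followed by UGT84A1 at 2.68 and GSTF3 at 1.76. The largest falls apart from GSTF12 were those of UGT84A2 at -1.83 and UGT85A3 at -1.81. GSTU24 rose by 1.36, GSTF2 by 1.32 and GSTU4 by 1.09. Of the members called for tfl2-1 in wild-type background (55) and in as1-1 background (61), 47 were called in both and 44 of these in the same direction. That is 80.0% of the first list and 72.1% of the second, where the shares over all genes were 76.4% and 67.9%.

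Genes of steps before and after the UGT and GST reactions were counted from 7 lists against wild type, beside 12.1%, 28.4% and 32.9% of all genes that fell in as1-1, tfl2-1 and the double mutant and 7.09%, 26.2% and 30.8% that rose. ABCC transporters, some of which carry glutathione conjugates or glucosides into the vacuole, showed 4 rises and 0 falls of 8 in tfl2-1. In the double mutant they showed 5 rises and 0 falls, and in as1-1 0 rises and 1 fall. ABCC10 differed by -0.36 in as1-1 and by 0.63 and 1.03 in tfl2-1 and the double mutant, and ABCC4 by 0.31 and 1.28. Genes of UDP-sugar supply and malonylation showed 7 rises and 3 falls of 12 in tfl2-1 plants, 6 and 4 in the double mutant and 1 and 2 in as1-1, with UGE1, a UDP-glucose epimerase, at 1.61 and 2.08 and the sucrose synthase gene SUS3 at 1.53 in tfl2-1. Of 10 genes of sulfate reduction and cysteine synthesis, which feed glutathione, 5 fell and 0 rose in as1-1, and 5 fell in each of the other mutants beside 3 rises in tfl2-1 and 2 in the double mutant. APR1 differed by -1.08, -0.71 and -1.25 and APS3 by -0.91, -0.66 and -1.28 in as1-1, tfl2-1 and the double mutant. Of 6 genes of glutathione synthesis and turnover, 0 rose and 1 fell in as1-1, 2 rose and 2 fell in tfl2-1, and 1 rose and 3 fell in the double mutant. GGP1, a peptidase that breaks down glutathione conjugates, differed by -0.51, -0.34 and -0.88 in as1-1, tfl2-1 and the double mutant. Of 9 TGA factors and partners, which bind promoters of many detoxification genes, 0 rose and 1 fell in as1-1, 3 rose and 1 fell in tfl2-1, and 5 rose and 2 fell in the double mutant, with TGA1 at 0.73 and 0.65 and TGA3 at -0.76 and -0.76. Of 8 other xenobiotic and oxylipin response genes, 0 rose and 3 fell in as1-1, 2 rose and 2 fell in tfl2-1, and 2 rose and 3 fell in the double mutant. CYP81D8, a cytochrome P450 gene of xenobiotic response, differed by -0.60 in as1-1 and -1.11 in the double mutant. Of the other GST classes, DHAR3 fell in tfl2-1 (-0.50) and the double mutant (-0.73), and DHAR2 rose in the double mutant (0.24).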

How the data were processed

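Feature Extraction, version 10.7 per the submitters' processing notes, gave each spot a background-subtracted, detrended intensity (the processed signal, on a linear scale), per the file headers. The authors also deposited a table of log2 values, used as an alternative. No header or label records how it was made, but its column medians lie between 7.6809 and 7.6817. Differences from it lay close to those from quantile normalization, such as 0.6547 and 0.6545 for GSTU20 in the double mutant. These alternatives are therefore not separate checks. Here, control spots and 67 outlier spots were left out, spots of a probe were averaged, and log2 intensities were set to 0 at each array's 75th percentile. Probes were kept when well above background on both arrays of 1 or more genotypes (30467 of 43603), and named through their accession in the RefSeq table of assembly TAIR10.1 (78.6% of probes matched). The files name another build, so no coordinates are given. The kept probe with the highest mean represents a gene. No value column lacked a sample. One limma 3.58.1 model (run in R 4.3.3) held a mean per genotype over all 8 arrays, with 4 residual degrees of freedom, and was tested on simulated data. Median signals of 170.1 to 238.9 per array and 2 arrays per genotype limit the precision, and no spot was saturated.

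The rule for named genes took the largest called rises and falls per family and comparison, up to 4 bounds per comparison and every gene of the role lists; the other members are named to account for all 85. The members and the lists were chosen with earlier results of these data known. Alternatives covered background correction, scaling, the filter on dim probes, the probes used, the genotypes fitted, the replicate number as a block and leaving out each array. Same-numbered arrays of different genotypes deviated from their group means with correlations of -0.05 to 0.05, so the numbers pair nothing. No probe, promoter or protein sequence was used here.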

Additional observations from a re-analysis of the deposited data

Results flagged for a closer look

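The as1-1 difference was not the same in plants with TFL2 and in tfl2-1 plants for 22 members, by the interaction in limma over 2 arrays per genotype with Benjamini-Hochberg adjustment (adjusted p under 0.05, where 20.3% of all genes were called). A negative value means a lower as1-1 difference in tfl2-1 background, on the log2 scale. Among UGT genes the interaction was -0.93 for UGT85A3, -0.52 for UGT85A5, -0.48 for UGT85A1 and -0.36 for UGT89B1. It was 0.42 for UGT74F1, 0.44 for UGT74E2, 0.55 for UGT88A1, 0.65 for UGT78D1, 0.70 for UGT74D1 and 1.21 for UGT84A1. Among phi-class GST genes it was -2.73 for GSTF12 by its brighter probe, -0.58 for GSTF4, -0.53 for GSTF8, 0.29 for GSTF6, 0.38 for GSTF7, 0.74 for GSTF2 and 1.12 for GSTF14. Among the other GST genes it was -0.35 for GSTU20, -0.32 for GSTL2, 0.70 for GSTU2, 0.76 for GSTU24 and 0.77 for GSTU1. Of the 9 of these genes with several probes, only GSTF4 and UGT88A1 were called by every probe in the same direction, in a fit of all probes. The other probes gave 0.27, 0.32 and 0.28 for GSTF2, 0.35 for UGT74D1, -0.14 for UGT85A5, -0.33 for UGT89B1, 0.22 for GSTF6 and -0.40 for GSTF8, none called, and 0.62 for GSTF12. GSTF14 was below background in tfl2-1 and the brighter GSTF12 probe in the double mutant, so both sizes are fitted values and not bounds.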

How the results depend on the processing

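With 2 arrays per genotype, calls near the threshold moved with the processing. Dim genes such as UGT84A1, UGT73B4, UGT76E1, UGT71B8 and GSTF14 moved with the background correction. The shares of all genes called under each alternative are not given here. The counts below therefore do not show whether a change was particular to UGT and GST genes. The counts of called UGT and GST genes stayed within 1.5 times for tfl2-1 and the double mutant against wild type and for the double mutant against as1-1 under every alternative run, and the following did not; the cause was not tested. In as1-1 (18 UGT and 10 GST genes), the counts were 8 and 5 with no filter on dim probes, 11 and 5 with only the genotypes compared, and 5 and 3 with spike-in centring, which was chosen after seeing the data. For the double mutant against tfl2-1 (23 and 16), spike-in centring gave 10 and 9. For the interaction (10 and 12), no filter gave 4 and 7, and spike-in centring 2 and 2. Replicate numbers did not pair the arrays, and with the replicate number as a block 14 UGT and 6 GST genes were called in as1-1.

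Leaving out 1 array gave 9 to 15 UGT and 6 to 8 GST genes in as1-1, 12 to 21 and 11 to 17 for the double mutant against tfl2-1, and 5 to 8 and 7 to 10 for the interaction. It gave 27 to 32 and 21 to 24 for tfl2-1, 30 to 34 and 23 to 26 for the double mutant against wild type, and 29 to 36 and 21 to 26 for the double mutant against as1-1. In as1-1, the count of UGT genes was 11 without wild-type replicate 1 and 9 without as1-1 replicate 1, and that of GST genes 6 without wild-type replicate 1, as1-1 replicate 1 or either tfl2-1 array. For the double mutant against tfl2-1, that of UGT genes was 12 and 14 without tfl2-1 replicate 1 or 2 and 14 without double-mutant replicate 1. For the interaction, that of UGT genes was 5 and 6 without double-mutant replicate 1 or 2, and that of GST genes 7 without tfl2-1 replicate 2 or double-mutant replicate 1.

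Scaling moved the split of rises and falls. Spike-in centring raised the median of all genes from -0.04 to 0.09 in as1-1, from -0.01 to 0.12 in tfl2-1 and from -0.01 to 0.28 in the double mutant. With it, rises and falls numbered 3 and 2 for UGT and 0 and 3 for GST genes in as1-1, 12 and 12 and 11 and 5 in tfl2-1, 19 and 13 and 14 and 3 in the double mutant, and 5 and 5 and 7 and 2 for the double mutant against tfl2-1. Against as1-1 the GST genes split into 15 and 5. With quantile normalization the GST genes split into 15 and 10 in the double mutant and 8 and 3 for the interaction, and with normexp into 1 and 9 in as1-1 and 11 and 3 for the interaction.

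In 26 of 9047 repeats for single genes, a value that was called here or in the repeat turned its sign, and in another 252 a value called in neither did. Quantile normalization and the deposited table each gave 7 of the 26, and they are not separate checks. With quantile normalization and in the authors' deposited table, GSTF9 was 0.33 and 0.33 in tfl2-1 plants, 0.54 and 0.54 in the double mutant, and 0.39 and 0.39 for the double mutant against as1-1. GSTU19 was 0.033 and 0.033 in the double mutant and 0.077 and 0.077 against as1-1, and GSTF10 0.16 and 0.16, and 0.073 and 0.075, in the same order. With the mean of all probes, GSTF2 was 0.24 and UGT84A3 0.33 in as1-1, and UGT84A3 0.0091 in the double mutant. With spike-in centring, UGT72B3 was 0.016 and GSTL3 0.076 in the double mutant. With probes above background on all 8 arrays, GSTF12 was 0.25 in tfl2-1, 0.86 in the double mutant, 0.86 and 0.61 for the double mutant against as1-1 and tfl2-1, and 0.62 for the interaction. UGT76E2 in tfl2-1 lay between -1.14 without tfl2-1 replicate 2 and 1.36 without tfl2-1 replicate 1. UGT76B1 in the double mutant against tfl2-1 lay between -0.31 and 0.30 without double-mutant replicate 1 or 2. Of all the repeats, 4101 kept a call and its direction, 4157 stayed without a call, and 582 lost and 181 gained a call in the same direction.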
